A study of Homo sapiens with 27 samples.

Results

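The genes described here are 41 genes whose products recognise replication origins, load and start the replicative helicase, or copy DNA at the fork. They were chosen by name and function, with earlier results of these data known, from 57905 gene identifiers in the table, and all 41 were found. Their mRNA was measured by RNA-seq in U937, a human cell line that the labels describe as myeloid leukemia cells. There were 3 libraries of control cells, 3 of cells exposed to matrine at 0.8 mg/ml during 30 min, and 3 of cells exposed to the same dose during 24 h. Matrine is an alkaloid from the herb Sophora flavescens. All groups were grown in RPMI 1640 with fetal bovine serum, and the paper's methods give water as the vehicle of matrine. A single control group served both treatment times. Its time in culture is not given in the sources used here, so 24 h of treatment and 24 h of culture cannot be told apart. The results hold for 1 cell line, and nothing in the labels says that the 3 libraries of a group came from separate cultures, so the p-values measure only the spread between these libraries.

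In each cell cycle the origin recognition complex, ORC, marks places where DNA synthesis may start. CDC6 and CDT1 then load the ring-shaped MCM2-7 complex onto DNA there, a step called licensing, and geminin (GMNN) holds CDT1 in check so that no origin is licensed again in the same cycle. In S phase CDC45 and the GINS complex join MCM2-7 to form the active CMG helicase, which unwinds the DNA. DNA polymerase alpha with primase lays down short primers, DNA polymerases epsilon and delta extend the leading and lagging strands, RFC loads the sliding clamp PCNA that holds them on the template, RPA coats single-stranded DNA, and FEN1 and DNA ligase I join the lagging-strand fragments. Proliferating leukemia cells keep these genes active, and many of them are classical targets of E2F transcription factors.

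The start-site windows of 6 genes are printed first, because the members moved together at 24 h and because they include 2 pairs of subunits of the same complex that did not. They were taken from RefSeq (GRCh38.p14) and matched by symbol, each running from 250 bases before to 50 bases after the annotated start. Capitals mark letters of an E2F type, here TTTCCCGC, TTTGGCGC, TTTCGCGC or TTTGCCGC on either strand. MCM2 (chr3:127598161-127598460, plus strand) and MCM6 (chr2:135876394-135876693, minus strand) encode helicase subunits, POLE2 (chr14:49688165-49688464, minus strand) and POLE (chr12:132687293-132687592, minus strand) encode subunits of polymerase epsilon, and RFC3 (chr13:33817899-33818198, plus strand) and RFC4 (chr3:186806433-186806732, minus strand) encode subunits of the clamp loader.
MCM2: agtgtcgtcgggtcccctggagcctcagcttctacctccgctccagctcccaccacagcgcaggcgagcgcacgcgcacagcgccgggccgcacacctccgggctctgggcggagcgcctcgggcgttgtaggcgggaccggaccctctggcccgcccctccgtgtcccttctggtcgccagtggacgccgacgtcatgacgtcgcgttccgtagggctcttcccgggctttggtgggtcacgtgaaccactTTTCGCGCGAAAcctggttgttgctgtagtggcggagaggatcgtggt
MCM6: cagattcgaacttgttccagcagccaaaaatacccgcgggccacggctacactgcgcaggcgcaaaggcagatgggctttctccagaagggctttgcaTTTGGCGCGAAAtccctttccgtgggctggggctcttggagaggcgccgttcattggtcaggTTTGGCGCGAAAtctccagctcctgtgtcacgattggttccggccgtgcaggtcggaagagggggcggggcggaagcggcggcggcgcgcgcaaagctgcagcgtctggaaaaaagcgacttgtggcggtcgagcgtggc
POLE2: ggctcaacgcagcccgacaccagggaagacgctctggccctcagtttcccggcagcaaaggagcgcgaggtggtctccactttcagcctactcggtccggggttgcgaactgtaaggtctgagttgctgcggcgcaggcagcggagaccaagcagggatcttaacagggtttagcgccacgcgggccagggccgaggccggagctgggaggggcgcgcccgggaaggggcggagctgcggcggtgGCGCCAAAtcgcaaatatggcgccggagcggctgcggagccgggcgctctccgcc
POLE: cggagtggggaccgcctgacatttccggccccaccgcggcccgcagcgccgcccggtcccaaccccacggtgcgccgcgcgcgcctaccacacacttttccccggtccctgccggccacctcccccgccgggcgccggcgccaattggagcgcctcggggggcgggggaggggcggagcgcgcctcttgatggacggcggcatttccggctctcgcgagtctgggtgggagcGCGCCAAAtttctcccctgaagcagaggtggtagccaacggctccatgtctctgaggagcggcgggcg
RFC3: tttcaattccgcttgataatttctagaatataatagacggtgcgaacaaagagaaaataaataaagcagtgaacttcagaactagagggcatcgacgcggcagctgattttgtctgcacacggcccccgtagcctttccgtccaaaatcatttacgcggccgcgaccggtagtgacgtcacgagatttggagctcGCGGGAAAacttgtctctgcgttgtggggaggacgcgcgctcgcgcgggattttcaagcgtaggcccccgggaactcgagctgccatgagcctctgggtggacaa
RFC4: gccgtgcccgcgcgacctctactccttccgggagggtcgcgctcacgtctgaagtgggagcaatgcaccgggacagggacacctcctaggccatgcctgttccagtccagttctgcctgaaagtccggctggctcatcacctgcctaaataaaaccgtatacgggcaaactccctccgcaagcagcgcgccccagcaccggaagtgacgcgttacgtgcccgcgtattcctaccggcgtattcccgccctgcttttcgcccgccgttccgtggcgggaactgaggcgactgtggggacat
In the MCM6 window 4 matches overlap in 2 stretches, which start 152 and 90 bases before the start site. The MCM2 matches lie at the start itself, at positions 3 and 7. POLE2, POLE and RFC3 each hold a single match, 5, 18 and 55 bases before the start, and the RFC4 window holds none.

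Windows were found for 35 of the 41 members. MCM4, MCM5, GINS4, POLD3, RPA2 and RPA3 had none in the table used. E2F-type letters were present in a window of 18 of these 35 genes, or 51.4%, against 3.99% of all 27305 genes with a window and 5.4% of 15842 protein-coding ones. The 24 matches formed 21 separate stretches. Of the 24 matches, 18 lay between 100 bases before and 50 bases after the start. The letters CCAAT, bound by NF-Y, were present on either strand in 60% of the member genes, 39.7% of all genes and 42.1% of protein-coding ones. The E box CACGTG was present in 17.1%, 8.77% and 10.9%. The letters TTTGAA, a form of the CHR element of late cell cycle genes, were present in none of the 35 member genes. They were present in 18.2% of all genes and 15.9% of protein-coding ones. One E2F-type match overlapped a CCAAT match, and none overlapped the other 2 motifs. A match describes letters, not a bound site, and only the exact words given were searched.

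Library totals ran from 17314931 to 21930018 counts, of which the top 10 genes held 4.99% to 5.28%. Counts of single members ranged from 291 to 21815 per library. Myeloid genes were present in the control, with ELANE at 885, LYZ at 292 and CD33 at 14.7 FPKM, while CD14, CD68, CSF1R and MPO lay below 1 FPKM. Of 12 erythroid markers and 8 T and B cell markers, 2 of each list exceeded a mean of 1 FPKM in any group, and CD3D, CD3E and CD3G were listed at 0. The summed level of the 16 myeloid markers was 2236 to 2581 FPKM in control libraries and 2669 to 2817 FPKM at 24 h. At 24 h, 6 of the 13 myeloid markers tested were higher and 4 lower at an adjusted p below 0.05. Of all genes, 30.9% were higher and 32.5% lower. ELANE lay at 1378 FPKM at 24 h, and PRTN3 fell from 646 to 300.4 FPKM. The part of these markers in the results below was not tested.

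After 24 h of matrine treatment, most of the replication machinery was expressed at a lower level. Of the 41 genes, all of which were tested, 37 were lower than in the control at an adjusted p below 0.05 and 0 were higher. Of all 12035 genes tested, 32.5% were lower and 30.9% were higher by the same rule. The changes were mostly moderate. With a fold change of at least 1.5 as a further condition, 10 members were down-regulated, namely ORC5, MCM2, MCM4, GINS3, GINS4, MCM10, POLA1, PRIM1, POLE2 and RFC3, where 11.5% of all genes were down-regulated and 14.8% up-regulated. The median log2 fold change of the members was -0.40, and that of all genes tested was -0.002. In 36 members every 24 h library lay below every control library, against 31% of all genes. In 2 members, POLE and RFC4, every 24 h library lay above every control library, against 38.7% of all genes. The 41 genes together took 0.733% to 0.739% of the counts of a control library and 0.569% to 0.585% of those of a 24 h library. In bulk RNA, a smaller share of cells in S phase and less mRNA per cell cannot be told apart.

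**Figure D1:**
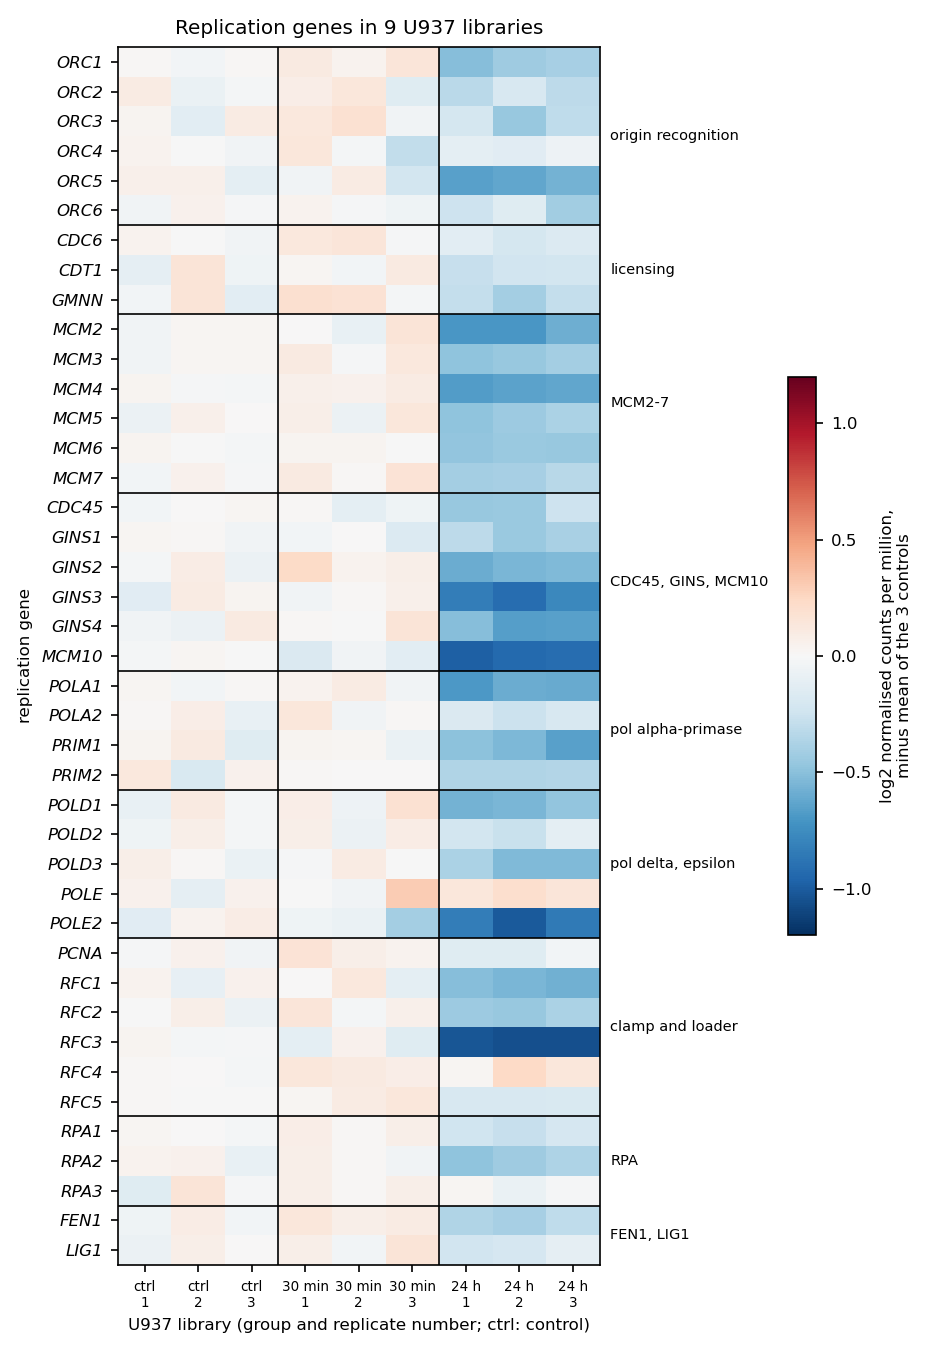
Level of each of the 41 genes (rows, by role) in each of the 9 libraries (columns), as log2 of the normalised CPM minus the mean of the 3 control libraries, with blue for lower and red for higher. The 3 columns at 24 h are blue for most genes, while POLE, RFC4 and RPA3 are not.

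None of these genes passed the test at 30 min. The number past the adjusted p was 0 of 41 with edgeR, with DESeq2 and with limma, and 0 also had an unadjusted p below 0.05, where 11.1% of all 11587 genes tested did. Of all genes, 1.32% were lower and 0.293% were higher at an adjusted p below 0.05, and 0.544% and 0.0949% were so past 1.5-fold. The largest change among the members was -0.19 on the log2 scale, for POLE2 (adjusted p = 0.525), and the median was 0.01. CDC45 and MCM10 had all 3 libraries at 30 min below all controls, and RFC4 had them above, against 8.91% and 4.89% of all genes.

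The libraries at 24 h were also compared with those at 30 min, in the same fit. There 37 of the 41 genes were lower at 24 h and 0 were higher at an adjusted p below 0.05, where 32.1% of all 11981 genes tested were lower and 33.3% higher. The median difference was -0.45. A total of 10 members were lower and 0 higher past the 1.5-fold condition, against 11.3% and 15.7% of all genes. GINS2 and POLD1 were among these 10, with log2 differences of -0.67 and -0.60, while ORC5 and PRIM1 were not, at -0.57 and -0.55. In 35 members every 24 h library lay below every 30 min library, against 28.6% of all genes, and in 0 members above, against 39.9%.

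**Figure D2:**
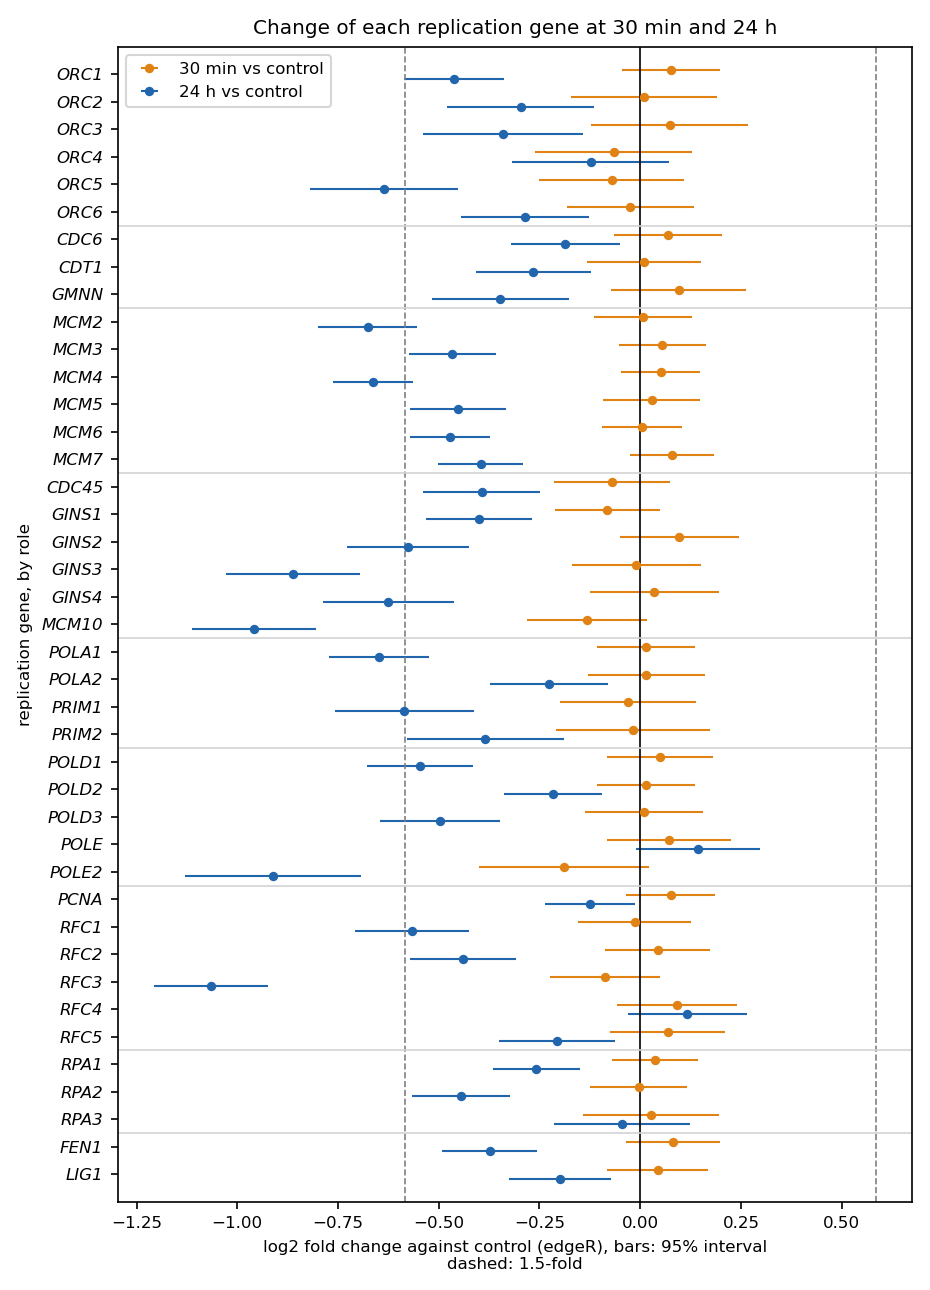
Log2 fold change of each of the 41 genes against the control at 30 min (orange) and at 24 h (blue), with 95% intervals from edgeR; dashed lines mark a fold change of 1.5. At 30 min every interval includes 0, and at 24 h the values run from -1.07 for RFC3 to 0.14 for POLE.

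Of the 6 genes for origin recognition, 5 were lower at 24 h. ORC is made of 6 subunits, of which ORC1 to ORC5 are related ATPase-type proteins that encircle DNA. ORC5 (ENSG00000164815) lay at 11.5, 11.2 and 10.2 FPKM in the control libraries, 10.3, 11.6 and 9.2 at 30 min and 7.19, 7.34 and 7.53 at 24 h. Its 24 h libraries all lay below the other 6 libraries, and its log2 fold change at that time was -0.64 (SE 0.09, adjusted p = 2.48e-06). ORC1, the subunit whose protein is best known to come and go with the cell cycle, fell from 33.5 ± 1.11 to 25.3 ± 0.954 FPKM (SD, n = 3 each), a log2 change of -0.46 (SE 0.06, adjusted p = 8.8e-07). ORC4 (ENSG00000115947), the subunit with the lowest level of all 41 genes, lay at 3.8, 3.61 and 3.6 FPKM in the control libraries, 3.91, 3.57 and 2.92 at 30 min and 3.49, 3.44 and 3.6 at 24 h. Its groups overlapped, and the change was -0.12 (SE 0.09, adjusted p = 0.26), with a 95% interval of -0.32 to 0.07. The other subunits, ORC2, ORC3 and ORC6, fell by between 0.29 and 0.34 on the log2 scale.

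The 3 licensing factors were lower at 24 h, but none reached 1.5-fold. Their median log2 change was -0.27, beside -0.47 for the MCM2-7 genes, and the difference was not tested. GMNN (ENSG00000112312), the inhibitor of CDT1, lay at 22.4, 25.1 and 21.1 FPKM in the control libraries, 25.2, 25.4 and 21.97 at 30 min and 19.3, 17.7 and 19.1 at 24 h. The 24 h libraries did not overlap the control, and the log2 fold change was -0.35 (SE 0.08, adjusted p = 0.000897). CDC6 (ENSG00000094804), the ATPase that brings MCM2-7 to ORC, lay at 24.8, 23.5 and 23.4 FPKM in the control libraries, 25.3, 26.02 and 23.1 at 30 min and 22.7, 21.2 and 21.8 at 24 h. Here the gap between the lowest control and the highest 24 h library was small, and the change was -0.19 (SE 0.06, adjusted p = 0.0169). CDC6 passed the adjusted p in 13 of the 20 processing settings. For CDT1, which escorts MCM2-7 to the origin, the change was -0.27 (SE 0.07, adjusted p = 0.00207). The ratio of GMNN to CDT1 in FPKM was 0.875, 0.829 and 0.787 in the control and 0.824, 0.734 and 0.796 at 24 h, with overlap.

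All 6 genes of the MCM2-7 helicase were lower at 24 h, with no overlap between the 24 h libraries and either other group. MCM2 (ENSG00000073111) and MCM4 (ENSG00000104738) passed the 1.5-fold condition, which both missed after quantile normalization. MCM2 lay at 89.2, 91.6 and 93.4 FPKM in the control libraries, 88.8, 84.9 and 99.5 at 30 min and 58.4, 58.1 and 62.2 at 24 h. For MCM4 the values were 105, 99.5 and 101 FPKM in the control libraries, 103, 104 and 106 at 30 min and 66.2, 67.4 and 67.4 at 24 h. Both were about equally reduced, with log2 fold changes of -0.68 (SE 0.06, adjusted p = 3.3e-09) for MCM2 and -0.66 (SE 0.05, adjusted p = 1.76e-10) for MCM4.

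The other 4 helicase genes fell by 0.40 to 0.47 on the log2 scale. MCM3 (ENSG00000112118) was measured at 128, 131 and 134 FPKM in the control libraries, 136, 128 and 140.0 at 30 min and 96.7, 98.6 and 100.5 at 24 h. MCM5 (ENSG00000100297), which forms the gate of the ring with MCM2, was measured at 46.1, 49.5 and 48.8 FPKM in the control libraries, 48.9, 45.3 and 51.7 at 30 min and 35.6, 36.6 and 37.7 at 24 h. In both genes the 30 min libraries overlapped the controls and the 24 h libraries lay below them, with changes of -0.47 (SE 0.05, adjusted p = 1.25e-07) and -0.45 (SE 0.06, adjusted p = 7.58e-07). MCM6 (ENSG00000076003) had 162, 155 and 157 FPKM in the control libraries, 157, 159.9 and 154 at 30 min and 118, 119.8 and 118 at 24 h. MCM7 (ENSG00000166508), the subunit with the highest level, had 214, 222 and 217 FPKM in the control libraries, 227, 217 and 239 at 30 min and 169.9, 170.2 and 176 at 24 h. All 24 h values of both genes lay below the other 6 libraries, and the changes were -0.47 (SE 0.05, adjusted p = 2.88e-08) for MCM6 and -0.40 (SE 0.05, adjusted p = 7.4e-07) for MCM7.

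The order of the 6 levels stayed the same. From highest to lowest in FPKM, which is scaled to transcript length, it was MCM7, MCM6, MCM3, MCM4, MCM2 and MCM5 in each group, and no neighbours in that order overlapped in any group. The level of MCM7 was 4.52 times that of MCM5 in the control, 4.68 times at 30 min and 4.7 times at 24 h. The assembled ring holds 1 copy of each subunit.

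**Figure D3:**
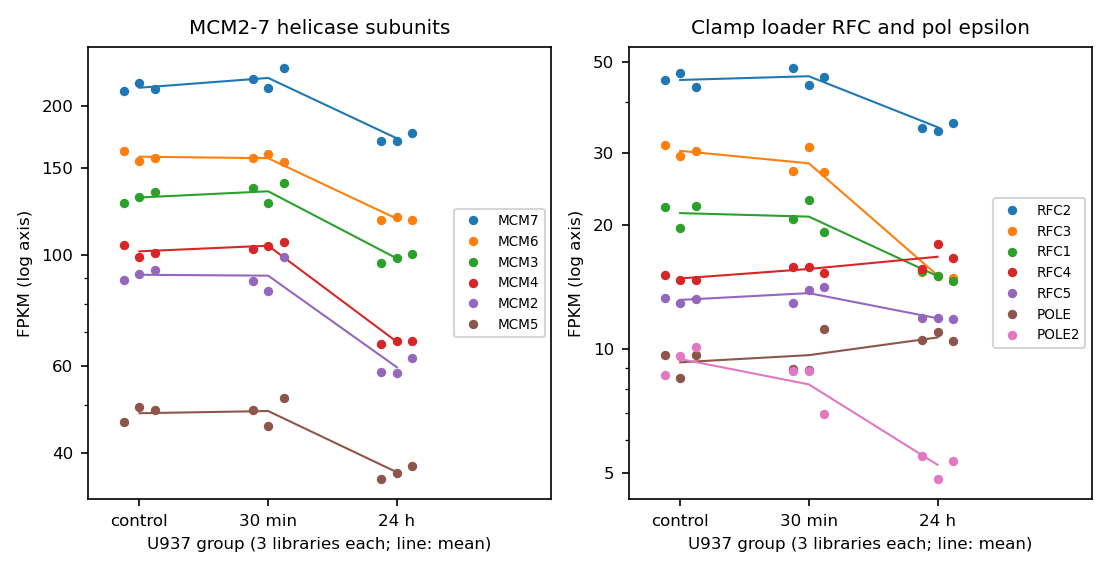
FPKM on a log axis in each library (points) and group means (lines) for the 6 MCM2-7 genes (left) and for the RFC and polymerase epsilon subunits (right). The MCM2-7 lines fall between 30 min and 24 h in the same order, whereas RFC3 falls to the level of RFC1 and RFC4 does not fall, and POLE and POLE2 separate at 24 h.

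The factors that turn loaded MCM2-7 into an active helicase had the lowest median log2 change of any role, -0.60 over 6 genes, all lower. MCM10 (ENSG00000065328), a firing factor needed to activate the CMG helicase, lay at 8.46, 8.57 and 8.61 FPKM in the control libraries, 7.35, 8.19 and 7.64 at 30 min and 4.47, 4.61 and 4.64 at 24 h. Its values at 30 min were also all below the controls, with a log2 change of -0.13 (adjusted p = 0.528), and at 24 h the change was -0.96 (SE 0.07, adjusted p = 4.9e-10), a fall of 48.6%. CDC45 (ENSG00000093009), the helicase partner with the smallest change, lay at 24.96, 25.1 and 26.04 FPKM in the control libraries, 24.8, 22.98 and 23.9 at 30 min and 19.2, 19.2 and 21.8 at 24 h. The 24 h libraries were again below the control without overlap, and the change was -0.39 (SE 0.07, adjusted p = 5.06e-05).

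The 4 GINS subunits, which form one complex, were all lower, by different amounts. GINS3 changed by -0.86 (SE 0.08, adjusted p = 7.93e-09), from 8.92 ± 0.68 to 5.11 ± 0.226 FPKM. GINS4 and GINS2 changed by -0.63 and -0.58, on either side of the 1.5-fold condition, which lies at a log2 change of -0.585. GINS1 changed by -0.40 (SE 0.06, adjusted p = 1.25e-05). The 95% intervals of GINS3 and GINS1 do not overlap, running from -1.03 to -0.70 and from -0.53 to -0.27, but the difference between genes was not tested.

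All 4 genes of the DNA polymerase alpha-primase complex were lower at 24 h. POLA1 (ENSG00000101868), the catalytic subunit that extends the RNA primer, lay at 23.4, 21.9 and 23.1 FPKM in the control libraries, 22.7, 24.03 and 21.7 at 30 min and 14.6, 15.6 and 15.3 at 24 h. POLA2 (ENSG00000014138), its regulatory subunit, lay at 10.6, 10.9 and 9.95 FPKM in the control libraries, 11.2, 10.02 and 10.3 at 30 min and 9.64, 9.01 and 9.38 at 24 h. The 24 h libraries lay below the controls in both genes, with log2 changes of -0.65 (SE 0.06, adjusted p = 6.71e-09) for POLA1 and -0.23 (SE 0.07, adjusted p = 0.00794) for POLA2. PRIM1, the catalytic primase subunit, changed by -0.59 (SE 0.08, adjusted p = 3.06e-06), just past the 1.5-fold condition. It fell short of that condition in most other settings, and its adjusted p stayed below 0.05 in all 20. PRIM1 shares 139 exonic bases with NACA on the same strand, and NACA, at 77.7 FPKM in the control, changed by -0.21. PRIM2, the large primase subunit, changed by -0.38 (SE 0.09, adjusted p = 0.00123).

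The subunits of DNA polymerase epsilon gave values of both signs. POLE2 (ENSG00000100479), an accessory subunit that ties the polymerase to the helicase at the origin, lay at 8.66, 9.61 and 10.1 FPKM in the control libraries, 8.83, 8.83 and 6.95 at 30 min and 5.5, 4.84 and 5.34 at 24 h. POLE (ENSG00000177084), the catalytic subunit that copies the leading strand, lay at 9.68, 8.49 and 9.68 FPKM in the control libraries, 8.94, 8.88 and 11.2 at 30 min and 10.5, 10.99 and 10.5 at 24 h. POLE2 was far below the control at 24 h, with a change of -0.91 (SE 0.11, adjusted p = 1.89e-07), whereas all 24 h libraries of POLE were above it, with a change of 0.14 (SE 0.07, adjusted p = 0.0968) that did not pass the test. POLE passed it, as higher, in 4 of the 20 settings. At 30 min replicate 3 had the highest POLE and the lowest POLE2 of its group. The 2 further subunits are histone-fold proteins and were read from the list of other replication genes. POLE3 changed by -0.71 (SE 0.05, adjusted p = 3.69e-10), and POLE4 by -0.24 (SE 0.09, adjusted p = 0.0291). The ratio of POLE to POLE2 in FPKM, chosen after the values were seen, was 1.12, 0.883 and 0.958 in the control, 1.01, 1.01 and 1.61 at 30 min, and 1.92, 2.27 and 1.96 at 24 h.

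Polymerase delta, the main lagging-strand polymerase, was lower in the 3 subunits among the members. POLD1, the catalytic subunit, fell from 57.4 ± 3.4 to 40.9 ± 1.17 FPKM, a change of -0.55 (SE 0.06, adjusted p = 2.04e-07). POLD3 changed by -0.50 (SE 0.07, adjusted p = 3.81e-06) and POLD2 by -0.22 (SE 0.06, adjusted p = 0.00284). The fourth subunit, POLD4, belongs to the list of other replication genes and went the other way. It lay at 1.18, 1.8 and 1.5 FPKM in the control libraries, 1.6, 1.53 and 1.5 at 30 min and 4.69, 4.32 and 4.53 at 24 h, so that its 24 h libraries were well above all others at a low level, and its change was 1.54 (SE 0.14, adjusted p = 6.15e-09). A divergent neighbour of POLD3, LIPT2, whose start lies 127 bases away, rose by 1.10 (adjusted p = 2.56e-05), and the overlapping LIPT2-AS1 rose by 0.91 (adjusted p = 0.000431).

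The sliding clamp and its loader included both the largest fall of the set and one of its 2 positive values. RFC is a pentamer with 1 copy each of RFC1 to RFC5. RFC3 (ENSG00000133119) lay at 31.3, 29.4 and 30.3 FPKM in the control libraries, 27.1, 30.9 and 26.9 at 30 min and 15.4, 15.1 and 14.9 at 24 h. RFC4 (ENSG00000163918) lay at 15.1, 14.7 and 14.7 FPKM in the control libraries, 15.9, 15.8 and 15.3 at 30 min and 15.6, 18.01 and 16.7 at 24 h. RFC3 was reduced by 52.2%, the only member past 2-fold, with a log2 change of -1.07 (SE 0.07, adjusted p = 3e-11), while RFC4 was above all controls at 24 h by a difference that did not pass the test, 0.12 (SE 0.07, adjusted p = 0.158). RFC4 passed it, as higher, in 5 of the 20 settings. The ratio of RFC4 to RFC3, also chosen after the values were seen, was 0.482, 0.501 and 0.485 in the control, 0.586, 0.511 and 0.57 at 30 min, and 1.02, 1.2 and 1.12 at 24 h.

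The other loader subunits lay between RFC3 and RFC4. RFC1, the large subunit, changed by -0.57 (SE 0.07, adjusted p = 3.04e-07), RFC2 by -0.44 (SE 0.06, adjusted p = 3.62e-06) and RFC5 by -0.21 (SE 0.07, adjusted p = 0.0129). RFC5 shares 186 exonic bases with WSB2 on the opposite strand, and WSB2 rose by 0.87 (adjusted p = 4.5e-08). Whether this overlap affected the counts of RFC5 was not tested. RFC5 passed the adjusted p in 16 of the 20 settings. PCNA (ENSG00000132646) was the most abundant of the 41 genes, at 407, 417 and 401 FPKM in the control libraries, 445, 422 and 412 at 30 min and 381, 381 and 407 at 24 h. Its groups overlapped at 24 h. The change was -0.12 (SE 0.05, adjusted p = 0.0469), the smallest fall that passed the test, and it passed in only 5 of the 20 settings.

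Of the single-strand binding protein RPA, the 2 larger subunits were lower and the smallest did not pass the test. RPA2 (ENSG00000117748), the subunit that is phosphorylated when forks stall, lay at 104, 103 and 95.2 FPKM in the control libraries, 102, 100.4 and 95.7 at 30 min and 74.4, 76.9 and 79.5 at 24 h. RPA3 (ENSG00000106399) lay at 9.85, 11.9 and 10.8 FPKM in the control libraries, 11, 10.8 and 11.1 at 30 min and 11.4, 10.6 and 10.9 at 24 h. The 24 h libraries of RPA2 lay below all others, with a change of -0.45 (SE 0.06, adjusted p = 1.1e-06), and the RPA3 groups overlapped, with a change of -0.05 (SE 0.08, adjusted p = 0.64) and a 95% interval of -0.21 to 0.12. RPA1, the subunit that holds most of the DNA-binding surface, changed by -0.26 (SE 0.05, adjusted p = 0.000198). RPA3 shares 118 exonic bases with UMAD1 on the opposite strand, which rose by 0.41 (adjusted p = 0.00213).

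Both genes of lagging-strand maturation were lower. FEN1 (ENSG00000168496), the nuclease that trims the displaced primer flap, lay at 67.5, 72.9 and 68.4 FPKM in the control libraries, 73.9, 72.1 and 72.8 at 30 min and 55.8, 54.4 and 57.5 at 24 h. LIG1 (ENSG00000105486), the ligase that seals the nick, lay at 24.1, 26.1 and 25.5 FPKM in the control libraries, 25.6, 24.3 and 27.4 at 30 min and 22.2, 22.6 and 23.8 at 24 h. In both genes the 24 h libraries were below the control, with changes of -0.37 (SE 0.06, adjusted p = 7.26e-06) for FEN1 and -0.20 (SE 0.06, adjusted p = 0.00685) for LIG1. LIG1 passed the adjusted p in 14 of the 20 settings. FEN1 shares 49 exonic bases with FADS2 on the same strand, and FADS2 rose from 12.9 to 78.2 FPKM.

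The nearest genes gave mixed values. Of 15 divergent partners in GENCODE whose start lies within 1000 bases of a member's start, 12 were tested at 24 h. Of these, 4 were higher and 2 were lower at an adjusted p below 0.05, where 30.9% and 32.5% of all genes were. Their median change was 0.07, against -0.38 for the members they stand beside. TPRA1 beside MCM2 changed by 0.40, ABHD12 beside GINS1 by 0.51 and CDS2 beside PCNA by 0.46. PRKDC, which encodes the catalytic subunit of the DNA repair kinase DNA-PK and starts 7 bases from MCM4, changed by -0.83 (adjusted p = 4.02e-09). Exons of 15 members overlap those of another gene in GENCODE, in 12 of them on the opposite strand, and whether the counting used strand is not given in the sources used here. All 13 pseudogenes named after members were at or near 0 in the control, the only one above 0 being PCNAP4 at 0.27 FPKM.

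Members with and without E2F-type letters, taken as the exact words given, had similar medians. The median log2 change at 24 h was -0.40 over the 18 members with such letters, 17 of which were lower at an adjusted p below 0.05. It was -0.38 over the 17 members with a window but no such letters, 15 of which were lower. POLE, whose change did not pass the test, and POLE2, which fell by 46.8%, both hold the letters. MCM10, which fell by 48.6%, holds none of the exact words. These values describe the lists and no test was made. Near forms of the words were not searched. The MCM10 window, for example, holds tttggcgg, which differs from TTTGGCGC in its last letter. The split therefore does not separate members with E2F sites from members without.

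The wider replication machinery moved in the same direction with more exceptions. A list of 55 other replication genes, covering origin firing, fork protection, chromatin assembly, topoisomerases and S phase control, gave 54 tested genes. At 24 h, 35 of them were lower and 6 were higher at an adjusted p below 0.05, beside 32.5% and 30.9% of all genes, with a median log2 change of -0.32. With the 1.5-fold condition 11, or 20.4%, were lower and 1, POLD4, was higher, beside 11.5% and 14.8% of all genes. At 30 min 0 of the 54 passed the adjusted p with edgeR. The largest falls were those of TIPIN, a fork protection factor, with -1.01 (SE 0.07, adjusted p = 1.39e-10), of TONSL, which reads newly made chromatin at damaged forks, with -0.99 (SE 0.07, adjusted p = 1.01e-10), and of ASF1A, a histone chaperone, with -0.78 (SE 0.10, adjusted p = 5.25e-07).

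Some partner proteins of that list also diverged, and the following were named after their values were seen. ASF1B, the paralog of ASF1A tied to proliferation, rose by 0.47 (adjusted p = 4.53e-07). TIMELESS, the partner of TIPIN, changed by 0.07 (SE 0.06, adjusted p = 0.314), and the ratio of TIMELESS to TIPIN was 1.05, 0.945 and 1.06 in the control and 2.28, 2.07 and 2.1 at 24 h. By contrast both subunits of the histone chaperone FACT fell, with changes of -0.78 (SE 0.05, adjusted p = 3.46e-11) for SSRP1 and -0.72 (SE 0.05, adjusted p = 1.09e-10) for SUPT16H.

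**Figure D4:**
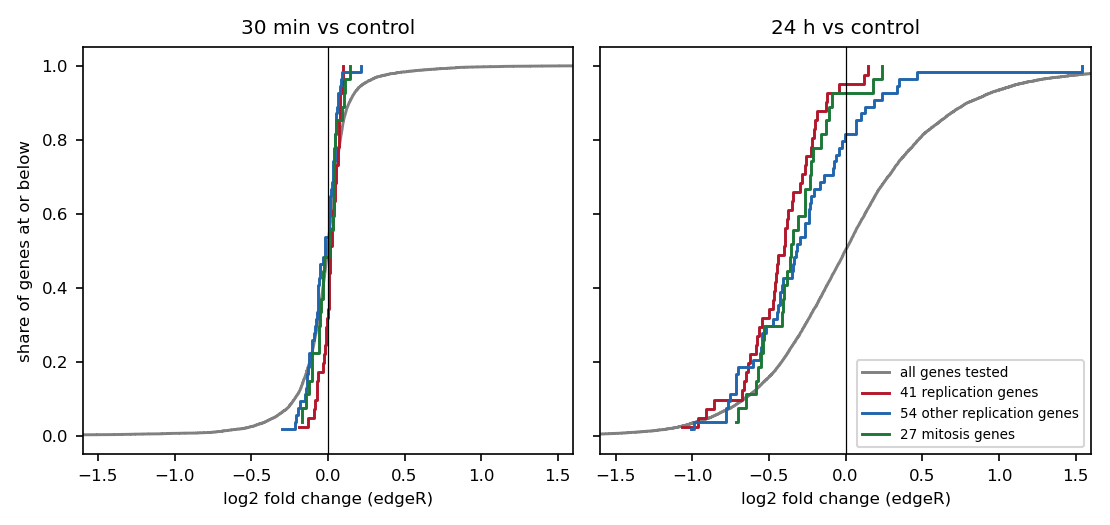
Share of genes (vertical axis) with a log2 fold change at or below the value on the horizontal axis, at 30 min (left) and 24 h (right), for all genes tested, the 41 replication genes, 54 other replication genes and 27 mitosis genes. At 30 min all curves are centred near 0, though 28 of the 41 replication genes lay above 0, beside 5670 of all 11587 genes. At 24 h the 3 lists lie left of all genes, with medians of -0.40, -0.32 and -0.36 against -0.002.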

How the data were processed

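RNA-seq libraries of U937 cells (3 control, 3 after 30 min and 3 after 24 h of matrine) were sequenced as read pairs by the authors. The authors' processing notes name cutadapt 1.9.1, HISAT2 2.0.1 and HTSeq 0.6.1 with GRCh37, whereas their methods name hg38, so no gene coordinates from the table were used. The authors deposited unnormalised read counts per gene and FPKM values, which are normalised for length and depth, under Ensembl identifiers. Symbols were matched to 51996 of 57905 identifiers. Counts were tested with edgeR 4.0.16 (R 4.3.3; TMM, quasi-likelihood test, Benjamini-Hochberg adjustment over all genes tested) in a single fit of all 9 libraries. A gene entered a comparison when its FPKM averaged more than 1 across the 6 libraries concerned. Down- or up-regulation means an adjusted p below 0.05 together with a 1.5-fold change. Each standard error was derived from the quasi-likelihood F statistic.

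The 41 members and all lists were chosen with earlier results of these data known. Values in every library are given for the MCM2-7 genes and for the lowest and highest change in each other role, and among other replication genes the 3 lowest and the highest called at 24 h are named. Genes outside this rule are marked or stand beside a named gene. A test on simulated counts of 11898 genes was made for 24 h against control, by the adjusted p alone and without the 1.5-fold condition. It recovered 44 of 50 genes changed 1.5-fold and 47 of 50 changed 2-fold, with 12 of 11699 unchanged genes past the adjusted p. Far fewer genes were changed in the simulation than passed the adjusted p at 24 h. Libraries of a group differed beyond sampling noise. With 3 libraries against 3, an exact permutation test cannot give a p below 0.1. Alternatives used limma 3.58.1, DESeq2 1.42.0, other filters, scalings and thresholds, a replicate block, and each library left out; the count of members past the adjusted p at any fold change was recomputed under them as an addition made after the data were seen. No protein sequences were analysed here.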

Additional observations from a re-analysis of the deposited data

Results flagged for a closer look

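In 10 replication genes the change at 24 h differed from that at 30 min, by the test of 24 h against 30 min itself (edgeR, adjusted p below 0.05 and at least 1.5-fold). The log2 differences were -0.98 for RFC3, -0.85 for GINS3, -0.83 for MCM10, -0.72 for POLE2, -0.71 for MCM4, -0.68 for MCM2, -0.67 for GINS2, -0.66 for POLA1, -0.66 for GINS4 and -0.60 for POLD1. All were lower at 24 h. Groups of 3 libraries were not searched for single outlying samples.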

How the results depend on the processing

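The number of members lower at 24 h than in the control at an adjusted p below 0.05 stayed between 32 and 37 over all settings, 30 members passed in every setting that tested them, and 38 kept a value below 0 in all. The sign changed under another setting for RPA3 alone at 24 h, while uncalled values near 0 at 30 min changed sign in 82 pairs of member and setting. The number past 1.5-fold as well depended more on the choices. It was 10, and became 13 with no filter, beside 2005 of all 27768 genes lower by the same rule. When only genes over 5 FPKM on average were tested it was 6 of 39 members, beside 781 of all 7273 genes. Library totals alone and limma on log2(FPKM + 0.1) each gave 7, beside 1173 and 1158 of all 12035 genes. Limma on log2(FPKM + 1) and limma after quantile normalization each gave 6 of 41 members, beside 895 and 1507 of all 12035 genes. It was 37 with no fold change threshold, beside 32.5% of all genes, 30 at 1.2-fold and 1 at 2-fold. Leaving out single libraries gave 8 to 11. The calls of PRIM1, ORC5, GINS4, POLA1, MCM2 and MCM4 were each lost in at least 1 setting. At any fold, CDT1, POLA2 and POLD2 passed in 19 of 20 settings. Against 30 min the number past 1.5-fold was 10, and became 15 with no filter, beside 1940 of all 27615 genes. With limma on log2(FPKM + 1) it was 5, beside 820 of 11981. It was 37 with no threshold, beside 32.1% of all genes, 31 at 1.2-fold and 0 at 2-fold (37 had an adjusted p below 0.05). Against the control at 24 h, 12 of 54 other replication genes were called past 1.5-fold, 11 lower and 1 higher. Of all genes, 11.5% were lower and 14.8% were higher by that rule. With no threshold 41 passed, 35 lower and 6 higher, beside 32.5% and 30.9% of all genes. At 1.2-fold 35 passed, 31 lower and 4 higher, and at 2-fold 2 passed, 1 lower and 1 higher. Shares of all genes at 1.2-fold and 2-fold are not given here. The median of the members at 24 h was -0.40, and became -0.46 without a filter, -0.37 over 5 FPKM, -0.34 with library totals alone, -0.34 and -0.34 with limma on log2(FPKM + 0.1) and log2(FPKM + 1), and -0.32 after quantile normalization. With single libraries left out it ran from -0.46 to -0.37, and at 30 min from 0.0147 to 0.0657. Scaling by library totals alone moved the share of lower among all called genes at 24 h from 43.7% to 37%, without moving the median of all genes by more than 0.1. Nothing in the labels says whether the replicate numbers pair the libraries. Deviations of libraries with the same number correlated between -0.13 and 0.07, and those with unlike numbers between -0.12 and 0.17. With 3 libraries per group this cannot settle the question. A fit with the replicate number as a block gave 9 members past 1.5-fold, without PRIM1, and 36 at any fold, without PCNA. No member passed the adjusted p at 30 min in any setting. Every member had at least 291 counts in each library.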

Other observations

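Genes of mitosis, the phase after replication, were also mostly lower. Of 27 mitosis genes 21 were lower and 2 were higher at 24 h at an adjusted p below 0.05, beside 32.5% and 30.9% of all genes, with a median log2 change of -0.36. Past 1.5-fold 3 were lower, namely CCNB1, PLK1 and MAD2L1, a share of 11.1% beside 11.5% of all genes. The higher genes were AURKB and ESPL1, with changes of 0.24 and 0.18. CDK1, the main mitotic kinase, changed by -0.13 (SE 0.07, edgeR adjusted p = 0.131).

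The E2F and RB family, whose members control many replication genes, moved in both directions. Of 12 genes tested, 6 were lower and 3 were higher at 24 h at an adjusted p below 0.05, beside 32.5% and 30.9% of all genes, with a median change of -0.16. E2F1 changed by -0.03 (SE 0.08, edgeR adjusted p = 0.729), the activator E2F2 rose by 0.65, the repressor E2F8 rose by 0.44 and RBL2, an RB relative, rose by 0.46. E2F5 fell from 1.9 to 0.613 FPKM, a log2 change of -1.68 (SE 0.15, edgeR adjusted p = 3.5e-09), the largest of the family. TFDP1, a dimer partner of E2F proteins, fell from 185 to 122 FPKM, a log2 change of -0.66 (SE 0.05, edgeR adjusted p = 1.53e-10). TFDP2 also changed by -0.66 (SE 0.08, edgeR adjusted p = 6.27e-07). E2F8 was also the only member of that family past the adjusted p at 30 min, where it was lower, with a change of -0.30 (edgeR adjusted p = 0.022).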
